A study of Mus musculus and Acomys cahirinus with 16 samples.

Results

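The genes described here are 10 that prepare peptides for major histocompatibility complex (MHC) class I molecules: B2m, Tap1, Tap2, Tapbp, Psmb8, Psmb9, Psmb10, Psme1, Nlrc5 and Erap1. They were chosen by symbol for their role in the pathway, with earlier results of these data known. Counts of members set beside all genes are therefore descriptive. All 10 were found among the 56980 genes counted in mouse and among the 19818 counted in spiny mouse. Polyadenylated RNA of skin was sequenced in 16 samples. The groups were untreated skin of the laboratory mouse (Mus musculus), DMBA/TPA-treated skin of the mouse, untreated skin of the African spiny mouse (Acomys cahirinus) and DMBA/TPA-treated skin of the spiny mouse, with 4 samples in each. In this protocol the mutagen dimethylbenzanthracene (DMBA) starts tumours, and repeated doses of the phorbol ester TPA promote them. The series concerns how spiny mice respond to this skin cancer protocol. Strain, sex, age, doses, times and whether a sample held a tumour are not given in the labels, and its design text describes irradiated fibroblasts, so the sample labels were followed.

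Class I molecules show short peptides from inside the cell to CD8+ T cells. The proteasome cuts proteins into peptides, the TAP transporter carries them into the endoplasmic reticulum, where they are trimmed and loaded onto a heavy chain that is held by beta-2 microglobulin. In cells exposed to interferon gamma, 3 catalytic subunits of the proteasome are replaced by the inducible subunits encoded by Psmb8, Psmb9 and Psmb10, and the protein Nlrc5 switches on many genes of the pathway. Keratinocytes and the immune cells of skin both use this machinery, and its loss in tumour cells is a known route of escape from T cells.

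The regulatory sequences shown here are those of B2m and Psmb8 and the stretch that Psmb9 and Tap1 share. They are RefSeq sequences of the mouse genome in the GRCm38.p6 build, which held an upstream stretch for 8 of the 10 members. Tap2 and Nlrc5 had no match. Capitals mark matches on either strand to 4 motifs: the interferon-stimulated response element (GAAA, any 2 bases, GAAA), the gamma-activated site (TTC, any 3 bases, GAA), the NF-kB site (GGGA, any 2 bases, TTCC), and CCAAT. The B2m stretch, at chr2:122147437-122147686 on the plus strand, holds the first, the third and the last of these motifs. The Psmb8 stretch, at chr17:34197945-34198194 on the plus strand, holds a gamma-activated site. The last sequence is the whole stretch between Psmb9, read from the minus strand, and Tap1, read from the plus strand, at chr17:34187331-34187555 and printed on the plus strand.
B2m upstream: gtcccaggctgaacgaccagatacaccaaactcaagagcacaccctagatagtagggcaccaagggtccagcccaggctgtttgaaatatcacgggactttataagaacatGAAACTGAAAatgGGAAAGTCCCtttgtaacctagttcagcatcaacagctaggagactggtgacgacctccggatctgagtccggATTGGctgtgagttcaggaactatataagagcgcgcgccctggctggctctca
Psmb8 upstream: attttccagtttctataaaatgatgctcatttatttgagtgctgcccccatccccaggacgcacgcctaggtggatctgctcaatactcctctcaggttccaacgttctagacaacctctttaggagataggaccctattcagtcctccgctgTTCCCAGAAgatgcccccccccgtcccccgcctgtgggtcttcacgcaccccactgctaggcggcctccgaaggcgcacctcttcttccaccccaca
Psmb9-Tap1 between the starts: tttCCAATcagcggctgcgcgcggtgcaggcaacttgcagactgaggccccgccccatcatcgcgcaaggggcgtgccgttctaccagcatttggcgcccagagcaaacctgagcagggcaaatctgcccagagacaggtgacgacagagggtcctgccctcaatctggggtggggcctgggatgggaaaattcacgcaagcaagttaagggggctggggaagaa

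In the B2m sequence the response element GAAACTGAAA lies 139 to 130 bases before the start, the NF-kB match GGGACTTTCC reads on the opposite strand at 126 to 117 bases, and CCAAT reads on the opposite strand at 53 to 49 bases. The gamma-activated site of Psmb8, TTCCCAGAA, lies 97 to 89 bases before the start. Over all 32851 RefSeq stretches of this length, 2.98% held the response element, 7.02% the gamma-activated site, 1.21% the NF-kB motif and 33.8% CCAAT. Among the 8 members with a sequence, 1 (B2m) held the response element, 1 (Psmb8) the gamma-activated site, 1 (B2m) the NF-kB motif and 4 (B2m, Psmb9, Tap1 and Tapbp) CCAAT. The CCAAT matches of Psmb9 and Tap1 are the same bases in the stretch they share, read from opposite strands. Different motifs do not overlap one another in these stretches, and a match is a description of letters only. The stretches printed include every one with a motif other than CCAAT, so they do not stand for all 8.

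In mouse genome build GRCm39, Psmb9 (chr17:34400961-34406738, minus strand), Tap1 (chr17:34406527-34416199), Psmb8 (chr17:34416695-34420428) and Tap2 (chr17:34422501-34435295) lie close together in the MHC, in a span of 34.34 kb, with the predicted gene Gm20496 listed between Psmb8 and Tap2. The spiny mouse assembly AcoCah2 held these 4 genes in the same order and orientation on scaffold_7, from Psmb9 at 1644202 to 1649299 to Tap2 at 1668589 to 1682062, in a span of 37.86 kb. The starts of Psmb9 and Tap1 are 226 bases apart in the mouse RefSeq sequence above and 226 bases apart in the spiny mouse gene models, whereas the mouse gene models used for counting overlap by 212 bases. Tapbp lies outside this cluster. Between the left ends of Tapbp and Psmb9 there are 266.1 kb in mouse (chr17:34134873-34148266) and 1162 kb in spiny mouse (scaffold_7:2806094-2816020). In mouse Tapbp is on the plus strand on the Psmb9 side. In spiny mouse it is on the minus strand on the Tap2 side. The other 5 members are on other mouse chromosomes: B2m at chr2:121978167-121983564, Psme1 at chr14:55815580-55818986, Erap1 at chr13:74787687-74841320, and Nlrc5 (chr8:95160984-95253900) and Psmb10 (chr8:106662367-106665076, minus strand) on 1 chromosome.

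**Figure D1:**
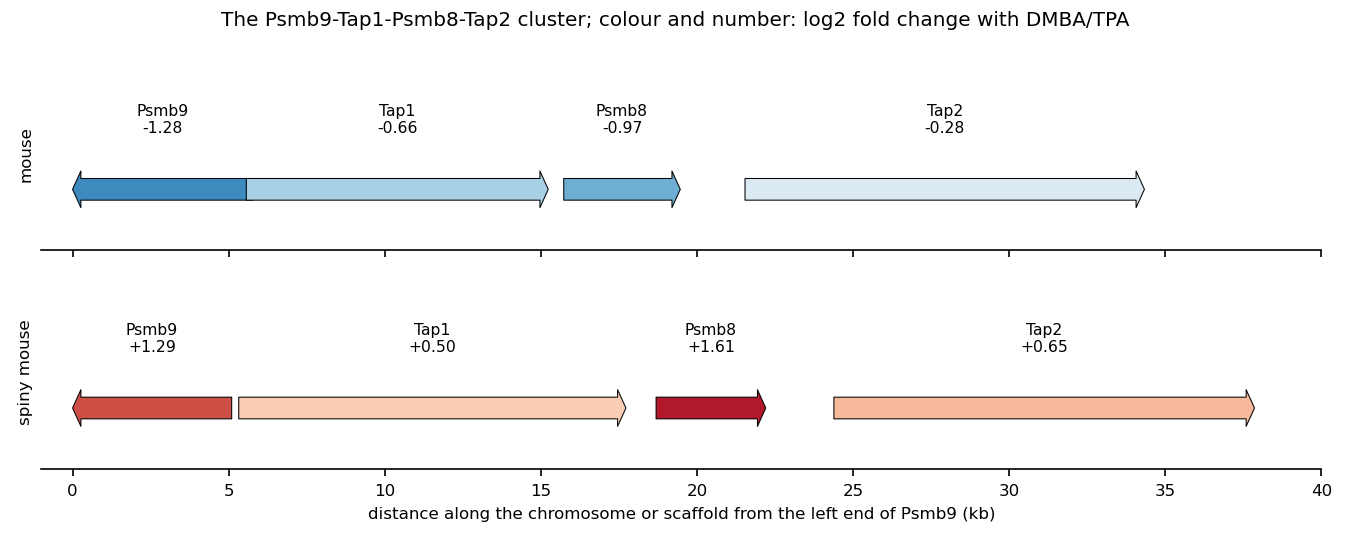
Gene models of the Psmb9-Tap1-Psmb8-Tap2 cluster in mouse (top) and spiny mouse (bottom), drawn to scale as kilobases from the left end of Psmb9, with arrows in the direction of transcription. Colour and number give the log2 fold change with DMBA/TPA: the 4 mouse values lie between -1.28 and -0.28, and the 4 spiny mouse values between 0.50 and 1.61.

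In spiny mouse skin 8 of the 10 members rose with DMBA/TPA, led by the immunoproteasome subunit Psmb8 at 3.05-fold. In mouse skin none rose and 4 fell (Tap1, Psmb8, Psmb9 and Nlrc5), with Psmb9 at 0.412 of its untreated level. These calls are at an adjusted p under 0.05 in the quasi-likelihood test of edgeR over all genes. Among all 19740 mouse genes tested 35.3% fell and 25.9% rose, so the 4 falling members are near the share of the whole table. Without untreated mouse replicate 2, which stood apart (its values are given below), 8 members fell in mouse, with B2m, Tapbp, Psmb10 and Erap1 added, while 36.2% of the 20009 genes then tested fell. Among all 14833 spiny mouse genes tested 28.2% rose and 26.9% fell, against 8 and 0 of the 10 members. The median log2 fold change of the members was -0.36 in mouse and 0.66 in spiny mouse, beside -0.15 and -0.01 over all genes.

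The difference between the species was tested itself, as the interaction of species and treatment over 13656 genes found in both tables. For 8 members the log2 fold change was larger in spiny mouse, where 21.4% of all genes had such a call, and the remaining members, Tapbp and Psme1, did not pass. The median difference was 1.197 on the log2 scale over the members and -0.03 over all genes. Tap1, Psmb8 and Psmb9, which lie in this MHC cluster, both fell in mouse and rose in spiny mouse, a combination that 3.53% of the shared genes had. A further 5 (B2m, Tap2, Psmb10, Psme1 and Erap1) rose in spiny mouse and did not pass in mouse.

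**Figure D2:**
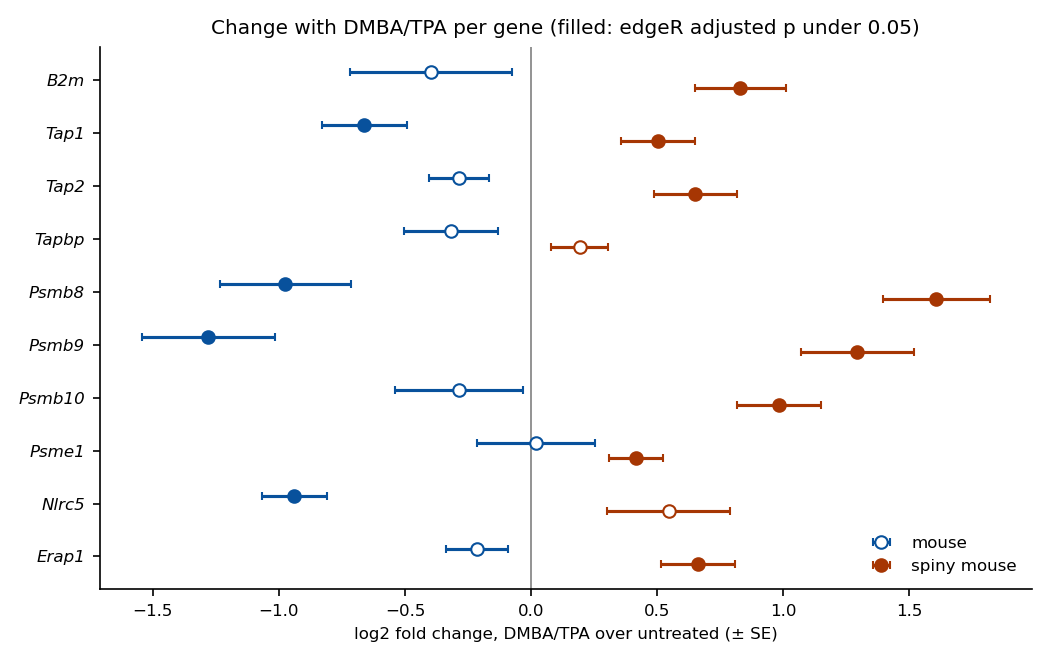
Log2 fold change of treated over untreated skin for each member, in mouse (blue) and spiny mouse (red), with bars for the standard error; filled points have an edgeR adjusted p under 0.05. The 10 spiny mouse points lie between 0.19 and 1.61, and the mouse points between -1.28 and 0.02.

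Levels are given as CPM (counts per sample, put on 1 scale with TMM factors) and are compared within a gene and a species. Total counts were 19608787 to 30198281 per mouse sample and 21143918 to 30561256 per spiny mouse sample, so 3 counts correspond to 0.102 to 0.158 CPM, far below every member. That floor covers counting error only. Untreated mouse replicate 2, whose column name has an extra suffix that no other column has, stood apart: its 10 most abundant genes held 13.12% of counts, against 8.602% to 8.785% in the other untreated mouse samples, and skeletal muscle markers summed to 62116 CPM there and to 20731, 24216 and 23404 CPM in replicates 1, 3 and 4. It had the lowest level of 9 of the 10 members among untreated mouse samples, at 37.0% to 86.3% of the median of the other 3, and the highest level of Nlrc5. Mouse results are therefore also given without it. Keratinocyte markers such as Krt14 were at 1359 to 10979 CPM in mouse and 2207 to 8214 CPM in spiny mouse, as the skin label says.

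The immunoproteasome subunits act first in the pathway, and among the members Psmb8 and Psmb9 had the largest estimated changes in both species. Psmb8 encodes the inducible subunit that takes the place of Psmb5. In mouse it was at 33.3, 14.9, 33.6 and 33.5 CPM in untreated replicates 1 to 4 and at 12.2, 12.4, 15.4 and 18.5 CPM in the treated ones. In spiny mouse it was at 44.2, 63.0, 66.4 and 51.9 CPM untreated and at 111.6, 182.0, 229.5 and 163.7 CPM treated. All 4 treated spiny mouse samples lay above all untreated ones, whereas in mouse the groups overlapped only through untreated replicate 2. The group means were 28.8 ± 9.27 and 14.6 ± 2.95 CPM in mouse (SD, n = 4) and 56.4 ± 10.2 and 171.7 ± 48.7 CPM in spiny mouse (SD, n = 4). Psmb8 changed by -0.97 on the log2 scale in mouse (SE 0.26, edgeR adjusted p 0.00974) and by 1.61 in spiny mouse (SE 0.212, edgeR adjusted p 0.000266), and the 2.58 between them passed the interaction test (SE 0.359, edgeR adjusted p 4.32e-05).

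Psmb9, the counterpart of Psmb6, shares its start region with Tap1 as printed above. Its mouse levels were 31.9, 15.5, 33.2 and 32.4 CPM untreated and 8.35, 10.4, 12.6 and 15.04 CPM treated. Its spiny mouse levels were 22.9, 38.1, 38.0 and 32.96 CPM untreated and 50.6, 86.6, 101.5 and 84.5 CPM treated. Every treated mouse sample was below every untreated one, and every treated spiny mouse sample was above. Psmb9 and Nlrc5 were the 2 members whose treated mouse samples lay wholly below, which 32% of all mouse genes tested showed. Psmb8, Psmb9, Psmb10 and Erap1 were the 4 whose treated spiny mouse samples lay wholly above, which 26.7% of all spiny mouse genes tested showed. The log2 fold change of Psmb9 was -1.28 in mouse (SE 0.264, edgeR adjusted p 0.00272) and 1.29 in spiny mouse (SE 0.224, edgeR adjusted p 0.00116).

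Psmb10, the counterpart of Psmb7 and the inducible subunit that lies outside the MHC, rose in spiny mouse from 19.1, 24.9, 24.8 and 18.7 CPM to 32.1, 47.8, 52.9 and 40.03 CPM. In mouse it was at 21.5, 9.96, 23.2 and 19.9 CPM untreated and 12.0, 13.6, 17.8 and 17.7 CPM treated. The mouse groups overlapped, again through untreated replicate 2 alone. The log2 fold change was 0.98 in spiny mouse (SE 0.167, edgeR adjusted p 0.00105) and -0.29 in mouse (SE 0.253, edgeR adjusted p 0.345). Without untreated replicate 2 the mouse value was -0.40 with an edgeR adjusted p of 0.0206. Without untreated replicate 3 it was -0.097, and the edgeR adjusted p reached 0.76 when single samples were left out. Psme1, an interferon-inducible subunit of the cap that opens the proteasome, rose by 0.42 in spiny mouse (SE 0.108, edgeR adjusted p 0.0094). In mouse it was at 92.2, 36.8, 76.9 and 78.6 CPM untreated and within 68.5 to 74.0 CPM in treated skin, and its change of 0.02 did not pass.

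**Figure D3:**
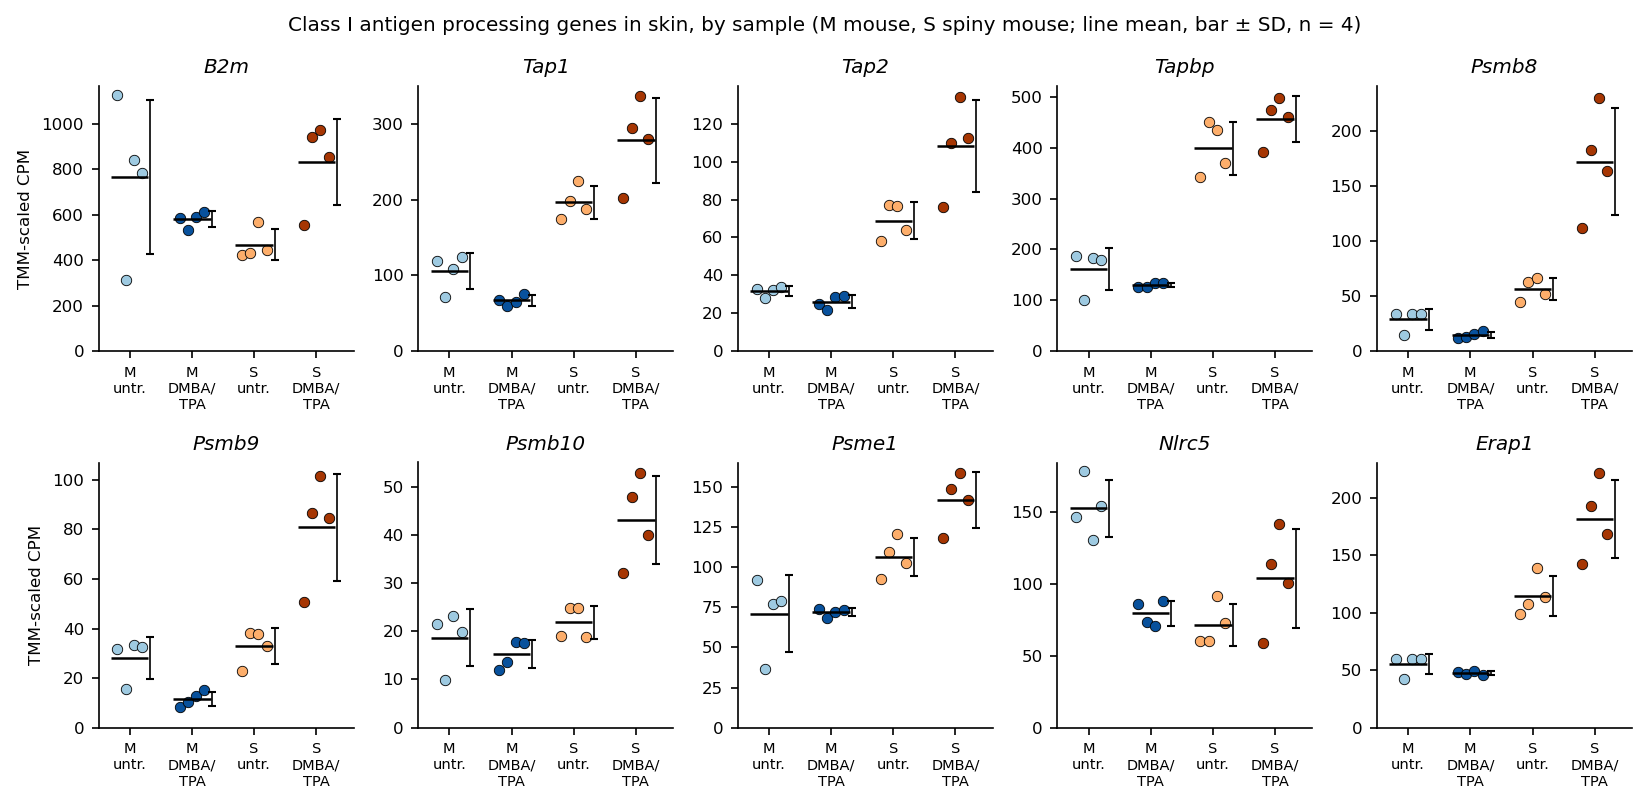
TMM-scaled CPM of each member in each sample (points; M mouse, S spiny mouse), with a line at the group mean and a bar of 1 SD to each side, n = 4 per group. In Psmb8, Psmb9, Psmb10 and Erap1 the treated spiny mouse samples all lie above the untreated ones, and the low untreated mouse point in 9 panels is replicate 2.

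The ratio of an inducible subunit to the subunit it replaces compares genes within a sample, on the TPM scale, which divides counts by gene length. In mouse, Psmb8 over Psmb5 was 0.167, 0.147, 0.155 and 0.163 in untreated skin and 0.0415, 0.0367, 0.0411 and 0.0511 in treated skin. Psmb9 over Psmb6 fell from 0.135 ± 0.00603 to 0.0349 ± 0.00713 (SD, n = 4), and Psmb10 over Psmb7 from 0.691 ± 0.0488 to 0.444 ± 0.0626 (SD, n = 4). In each of these ratios every treated mouse sample lay below every untreated one, and untreated replicate 2 stood with its group at 0.147, 0.138 and 0.626. The two-sided exact permutation p was 0.0286 for each, the smallest that 4 against 4 allow, and 0.0429 after adjustment over the 6 ratios.

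In spiny mouse, Psmb8 over Psmb5 was 0.162, 0.195, 0.227 and 0.186 in untreated skin and 0.327, 0.562, 0.722 and 0.503 in treated skin. All treated samples lay above all untreated ones, with an exact permutation p of 0.0286, adjusted to 0.0429. Psmb9 over Psmb6 was 0.256 ± 0.05 untreated and 0.493 ± 0.135 treated (SD, n = 4), and the groups touched, with an exact permutation p of 0.0571, adjusted to 0.0685. Psmb10 over Psmb7 was 0.183 ± 0.0273 and 0.275 ± 0.0649 (SD, n = 4), with overlapping groups and an exact permutation p of 0.0857. Of the constitutive subunits in these ratios, Psmb5 rose by 0.92 in mouse (edgeR adjusted p 0.00528) and had a change of 0.16 in spiny mouse that did not pass, while Psmb6 rose in both species (0.65 and 0.35, edgeR adjusted p 0.0349 and 0.00125) and Psmb7 in spiny mouse by 0.40 (edgeR adjusted p 0.00021).

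**Figure D4:**
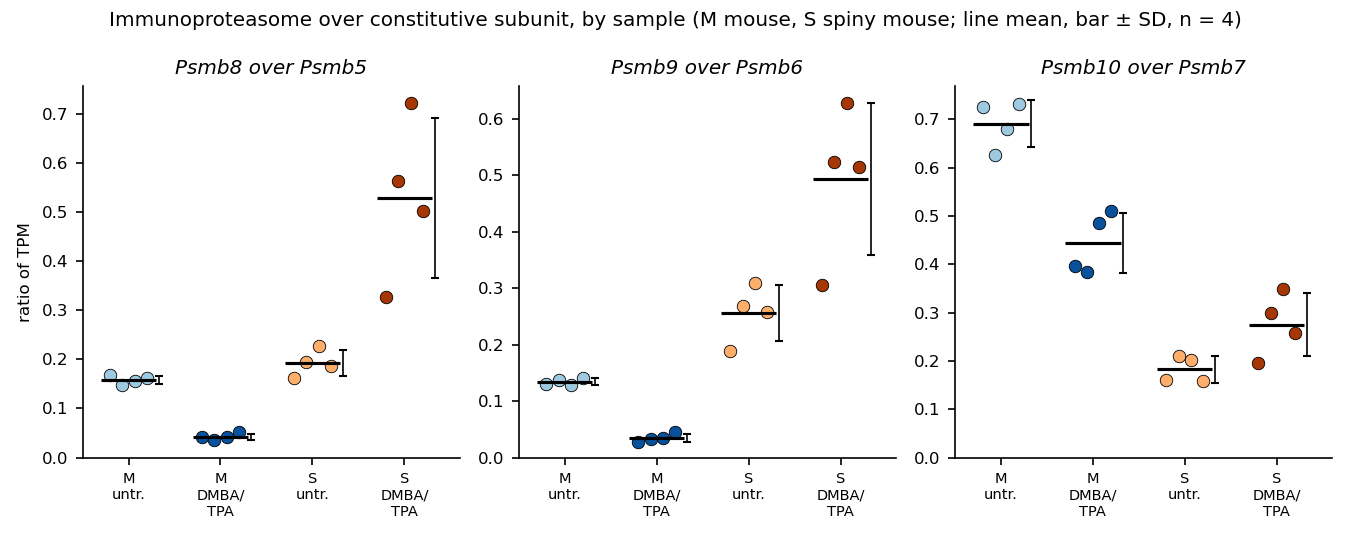
Ratio of each inducible subunit to its constitutive counterpart, as TPM over TPM in each sample (points), with a line at the group mean and a bar of 1 SD to each side, n = 4 per group. Treated mouse samples lie below untreated ones in every panel, and treated spiny mouse samples lie wholly above only for Psmb8 over Psmb5.

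Tap1 and Tap2 encode the chains of the peptide transporter. Tap1 was at 118.5, 72.0, 108.3 and 124.4 CPM in untreated mouse skin and at 67.2, 59.4, 65.2 and 75.8 CPM in treated mouse skin. In spiny mouse it was at 174.4, 197.9, 225.4 and 187.8 CPM untreated and at 202.7, 294.7, 336.4 and 280.8 CPM treated. The mouse groups overlapped through untreated replicate 2 and the spiny mouse groups through treated replicate 1. Tap1 fell by 0.66 in mouse (SE 0.169, edgeR adjusted p 0.00791) and rose by 0.50 in spiny mouse (SE 0.147, edgeR adjusted p 0.0163). Tap2 rose by 0.65 in spiny mouse (SE 0.165, edgeR adjusted p 0.00848), from 57.9 to 77.2 CPM in untreated skin to 75.9 to 134.3 CPM in treated skin. Its mouse value of -0.28 had an edgeR adjusted p of 0.0628. The species differences of 1.17 for Tap1 and 0.94 for Tap2 passed the interaction test, with edgeR adjusted p of 0.000959 and 0.00229.

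Erap1 is the aminopeptidase that trims peptides in the endoplasmic reticulum. It was at 98.6, 107.5, 138.6 and 113.6 CPM in untreated spiny mouse skin and at 142.2, 192.4, 221.6 and 168.6 CPM in treated skin, so the groups did not overlap, by a gap of a few CPM. The rise was 0.66 on the log2 scale (SE 0.147, edgeR adjusted p 0.0043). The mouse levels lay between 42.0 and 59.8 CPM in all 8 samples, and the treated ones differed by -0.21 on the log2 scale (SE 0.123, edgeR adjusted p 0.154). Tapbp, or tapasin, bridges the transporter and the empty class I molecule. It was the one member past the threshold in neither species, at -0.32 in mouse (edgeR adjusted p 0.162) and 0.19 in spiny mouse (edgeR adjusted p 0.172), with a difference of 0.51 (SE 0.229, edgeR adjusted p 0.0791).

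B2m encodes beta-2 microglobulin, the light chain of every class I molecule. Its mouse levels were 1127, 312, 843 and 783 CPM untreated and 588, 533, 592 and 614 CPM treated. Its spiny mouse levels were 425, 434, 569.9 and 445 CPM untreated and 555, 943, 974 and 857 CPM treated. Treated mouse samples were alike and lay inside the wide untreated range, and in spiny mouse untreated replicate 3 slightly exceeded treated replicate 1. B2m rose 1.78-fold in spiny mouse (log2 0.83, SE 0.18, edgeR adjusted p 0.00381). In mouse the log2 fold change was -0.40 (SE 0.322, edgeR adjusted p 0.305), and -0.57 without untreated replicate 2 (edgeR adjusted p 0.00227). It was -0.14 without untreated replicate 1, and the edgeR adjusted p reached 0.716 when single samples were left out.

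Nlrc5 encodes the transactivator of class I genes, and it was the member with the smallest p in mouse. It was at 146.6, 178.1, 130.2 and 153.9 CPM in untreated mouse skin and at 85.8, 73.4, 70.3 and 88.0 CPM in treated skin. In spiny mouse it was at 60.5, 60.2, 91.2 and 72.4 CPM untreated and at 58.8, 113.8, 141.5 and 100.5 CPM treated. The mouse groups were well apart, whereas treated spiny mouse replicate 1 was below every untreated sample and the other treated samples were above. Nlrc5 fell by 0.94 in mouse (SE 0.128, edgeR adjusted p 0.000298). In spiny mouse the value was 0.55 (SE 0.243, edgeR adjusted p 0.0829), and 0.74 without treated replicate 1 (edgeR adjusted p 0.00733). It was 0.36 without treated replicate 3. The species difference of 1.48 passed the interaction test (SE 0.292, edgeR adjusted p 0.000745).

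The treated spiny mouse samples kept nearly the same order across members. Replicate 1 was lowest and replicate 3 highest in 10 of 10 members, and in 9 of them the order was replicate 3, 2, 4 and 1, with Tap2 the exception. Cd8a, the CD8 chain of cytotoxic T cells, had that order too, at 3.78, 10.9, 20.7 and 9.82 CPM in treated replicates 1 to 4 and 2.79 to 4.90 CPM in untreated skin. It was singled out after its values were seen, and the summed T cell markers ran otherwise, at 1291, 1237, 979.97 and 1209 CPM, highest in replicate 1 and lowest in replicate 3. Summed dendritic and Langerhans cell markers, at 381, 591, 836 and 682 CPM, had replicate 1 lowest and replicate 3 highest. So did summed neutrophil markers and summed cytotoxic and natural killer markers. Summed macrophage and B cell markers did not. The mRNA of interferon gamma itself was near the detection floor, with 2, 13, 19 and 4 Ifng counts in treated spiny mouse replicates 1 to 4, 0 to 4 in untreated spiny mouse, 1 to 7 in untreated mouse and 0 to 2 in treated mouse. It was too low to be tested in either species.

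Between genes, levels are compared as TPM. B2m was highest in all 4 groups and separate from the next gene, at 2823 ± 996 TPM in untreated mouse, 1729 ± 133 in treated mouse, 1403 ± 278 in untreated spiny mouse and 2382 ± 542 in treated spiny mouse (SD, n = 4). Tapbp and Psme1 followed in every group, and their ranges overlapped. In treated mouse skin Psmb9 was lowest at 8.08 ± 1.96 TPM (SD, n = 4), and its range overlapped that of Psmb8. In spiny mouse Nlrc5 was lowest, at 24.4 ± 6.48 untreated and 33.9 ± 11.4 TPM treated (SD, n = 4). Psmb8 stood at 117 ± 24.6 TPM in untreated and 341 ± 98 TPM in treated spiny mouse (SD, n = 4), where its range overlapped that of Psme1. TPM of the species are set side by side only, because gene models differ.

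The class I heavy chains, which present the peptide, fell in mouse: of 12 genes 7 fell and none rose, with a median log2 fold change of -1.04. Of all mouse genes tested 35.3% fell and 25.9% rose. The classical chains H2-K1 and H2-D1 were at -0.37 (edgeR adjusted p 0.183) and -0.15 (edgeR adjusted p 0.618), and the 7 were the nonclassical or class I-like H2-Q4, H2-Q6, H2-Q7, H2-T22, H2-T23, H2-M3 and Mr1. H2-Q6 fell by 1.58 and H2-Q4 by 1.29 (edgeR adjusted p 0.000246 and 5.62e-05). Copies of these chains are near-identical, and fragments that fit several genes were not counted, so their counts are uncertain. In spiny mouse 5 genes with these symbols were tested, and 2 rose, H2-T22 and H2-T24, beside 28.2% of all genes there. H2-T22 was low there, at 0.243 ± 0.166 CPM untreated and 1.05 ± 0.262 CPM treated (SD, n = 4). No gene counted in spiny mouse had the symbol H2-K1, H2-D1, H2-Q4, H2-Q6 or H2-Q10, so these could not be analysed there. H2-T23 had 0 counts in both spiny mouse groups.

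Chaperones of peptide loading and folding rose in both species, 5 of 8 in mouse and 6 of 8 in spiny mouse. Over all genes tested, 25.9% rose in mouse and 28.2% in spiny mouse. Calr, which holds the class I molecule for loading, rose by 1.44 in mouse and by 0.94 in spiny mouse (edgeR adjusted p 0.000332 and 6.22e-05). Only Hspa5, with a smaller rise in spiny mouse, and Uggt1, with a larger one, passed the test of the species difference. The constitutive and regulatory proteasome genes also rose in both, 10 of 21 in mouse and 20 of 21 in spiny mouse, and none fell. The median was 0.46 in mouse and 0.39 in spiny mouse. Their species difference had a median of -0.02 and 2 calls, both smaller in spiny mouse, as 24.7% of all shared genes were: Psmb5 at -0.76 and Psme3 at -0.71 (edgeR adjusted p 0.0175 and 0.00024). For Psmb8, Psmb9 and Psmb10 that difference was positive at 2.58, 2.57 and 1.27.

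Among 8 peptidases other than Erap1, 5 rose and 1 fell in mouse, and 5 rose and 1 fell of 7 in spiny mouse. The shares of all genes were 25.9% rising and 35.3% falling in mouse, and 28.2% and 26.9% in spiny mouse. The peptidase gene that fell in both was Lnpep, an endosomal trimming enzyme, at -1.06 and -0.35. Lap3, the cytosolic leucine aminopeptidase, rose by 2.43 in mouse (edgeR adjusted p 1.89e-05) and was at -0.90 in spiny mouse (edgeR adjusted p 0.0926), and the difference of -3.33 passed the interaction test (edgeR adjusted p 8.1e-05). Of the peptidases, Lnpep and Npepps had a positive species difference that passed, and Thop1, Blmh and Lap3 a negative one. Of all shared genes 21.4% had a positive and 24.7% a negative call.

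Of 15 transcription factor genes of the class I promoters, 3 rose and 4 fell in mouse, and 7 rose and 1 fell in spiny mouse. The mouse counts do not exceed the shares of all genes tested, of which 25.9% rose and 35.3% fell. In spiny mouse 28.2% of all genes rose and 26.9% fell. Irf1, which binds interferon response elements, fell in mouse from 25.1, 19.8, 28.9 and 31.8 CPM to 14.6, 16.04, 15.9 and 19.0 CPM. In spiny mouse it went from 27.5, 34.3, 30.7 and 29.1 CPM to 33.5, 58.8, 87.1 and 64.8 CPM. The mouse groups were separate, and treated spiny mouse replicate 1 fell within the untreated range. The log2 fold change was -0.69 in mouse and 1.01 in spiny mouse, and the difference was 1.69 (SE 0.304, edgeR adjusted p 0.000362). Ciita, the relative of Nlrc5 that drives class II genes, fell by 1.28 in mouse (edgeR adjusted p 6.45e-05) and was at 0.38 in spiny mouse (edgeR adjusted p 0.143). Rfx5, part of the complex that Nlrc5 joins, fell by 0.50 in spiny mouse (edgeR adjusted p 0.00156) and was at -0.41 in mouse (edgeR adjusted p 0.0878).

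Of 8 tested genes of interferon gamma signalling, all 8 rose in spiny mouse, where 28.2% of all genes did. In mouse 2 rose (Socs1 and Ptpn2, both brakes on the signal) and 3 fell, Ifngr1 and Stat2 among them. These mouse counts are near the shares of all genes, of which 25.9% rose and 35.3% fell. Jak2, the kinase at the receptor, was at 118.4 to 147.3 CPM in untreated and 273.1 to 402.0 CPM in treated spiny mouse skin, and at 52.2 to 62.1 CPM in all mouse samples. Ifngr1, a chain of the receptor, rose by 0.99 in spiny mouse (edgeR adjusted p 5.37e-05) and fell by 0.91 in mouse (edgeR adjusted p 0.00272). The species difference was positive and passed for 6 of the 8, with a median of 1.196, beside 1.197 over the class I members. Such a call was made for 21.4% of all shared genes.

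**Figure D5:**
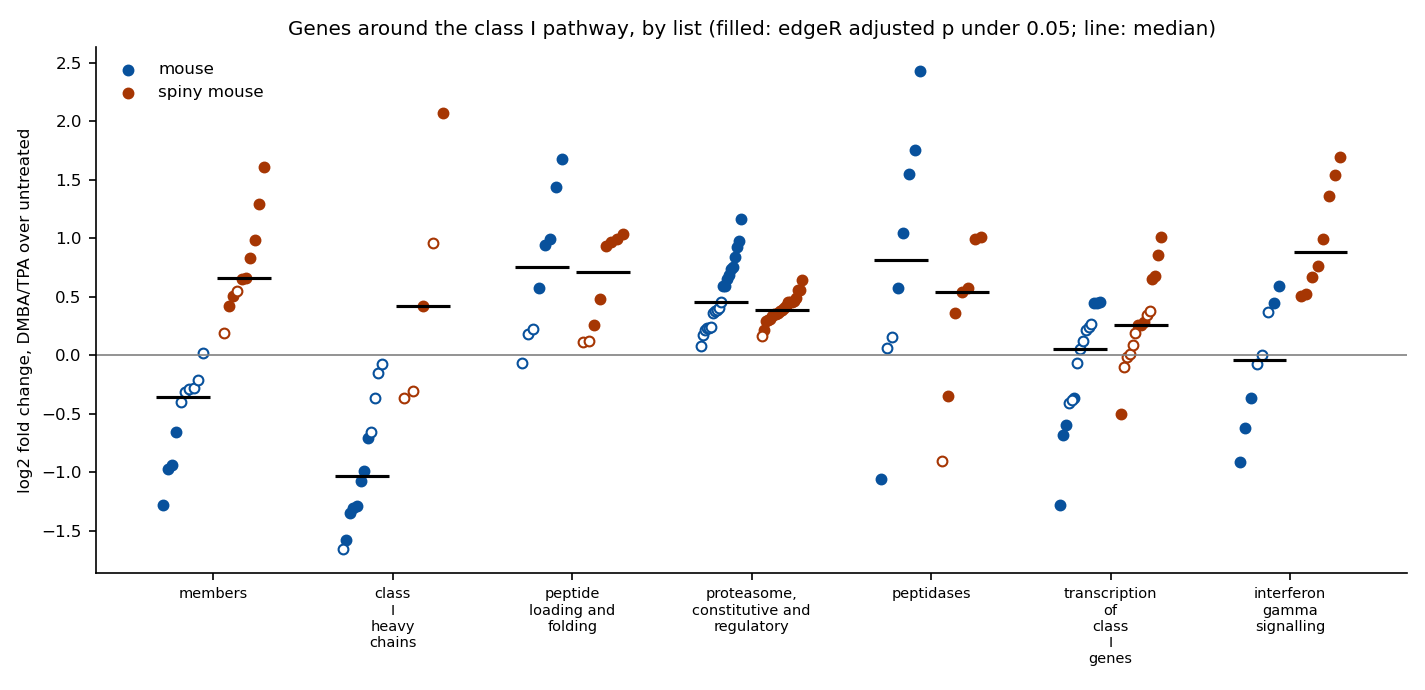
Log2 fold change with DMBA/TPA of the members and of 6 lists of surrounding genes, 1 point per gene tested, in mouse (blue) and spiny mouse (red), with lines at the medians; filled points have an edgeR adjusted p under 0.05. The species medians are -0.36 and 0.66 for members and -0.04 and 0.88 for interferon gamma signalling. They lie close for loading chaperones (0.76 and 0.71) and constitutive proteasome genes (0.46 and 0.39). For class I heavy chains the medians cover unlike sets, -1.04 over 12 mouse genes and 0.42 over 5 spiny mouse genes.

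In whole skin, fewer cells of a type and less RNA per cell cannot be told apart, so immune markers are given beside the class I genes. Summed T cell markers were at 368 to 429 CPM in untreated and 979.97 to 1291 CPM in treated spiny mouse skin, and 7 of 10 tested markers rose. Most of that sum was Thy1, which other cells of skin also express, at 324 to 355 CPM untreated and 828 to 1217 CPM treated. Cd3d, Cd3e and Cd247 of the T cell receptor complex did not pass there (0.58, 0.54 and -0.49, edgeR adjusted p 0.0829, 0.0744 and 0.139). In mouse the sum was 67.9 to 128 CPM untreated and 105 to 141 CPM treated, and 5 of 12 fell (Cd3d, Cd3e, Cd3g, Cd2 and Cd247). Cytotoxic and natural killer markers fell in mouse in 6 of 7 cases, from 12.6 to 29.5 CPM summed to 4.67 to 7.39 CPM. In spiny mouse 4 of 8 rose, and the sum was 13.4, 28.2, 54.1 and 30.3 CPM in treated replicates 1 to 4 against 16.1 to 21.9 CPM untreated.

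Macrophage markers rose in 4 of 7 cases in spiny mouse (381 to 423 CPM summed, then 663 to 1010) and fell in 2 of 8 in mouse (517 to 1486, then 534 to 730). Dendritic and Langerhans cell markers fell in 6 of 8 cases in mouse (356 to 745 CPM summed, then 263 to 375), and in spiny mouse 1 rose and 2 fell of 7 (389.7 to 519, then 381 to 836). Of these 4 lists no marker was at 0 in a whole group. Skeletal muscle markers fell in both species, from 20731 to 62116 CPM to 3259 to 4342 CPM in mouse and from 14138 to 20065 CPM to 5492 to 10558 CPM in spiny mouse. Summed keratinocyte markers were 8999 to 15714 CPM untreated and 20762 to 29655 CPM treated in mouse, and 14215 to 18368 and 24318 to 30876 CPM in spiny mouse. Of these 8 markers 4 rose and 2 fell in mouse (Krt15 at -2.05 and Col17a1 at -0.89), and 5 rose and 1 fell in spiny mouse (Krt15 at -1.64). Of the other markers, 3 of 3 tested neutrophil genes rose in mouse, where Ly6g was listed at 0 in treated skin, and 3 rose and 1 fell of 5 in spiny mouse. No B cell marker passed in either species. Endothelial markers fell in 4 of 6 cases in mouse, and in spiny mouse 1 rose and 2 fell. Fibroblast markers fell in 2 of 6 cases in mouse, and in spiny mouse 1 rose and 3 fell. Over all genes tested, 35.3% fell and 25.9% rose in mouse, and 28.2% rose and 26.9% fell in spiny mouse. The macrophage and fibroblast counts in mouse, 2 of 8 and 2 of 6, do not exceed that share of falling genes. The part of the marker changes in the class I changes was not tested.

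Counting used no strand, so exons shared with a neighbour can lose or gain fragments. In mouse 33.1% of the exonic bases of Tapbp overlap other genes (Zbtb22 and a predicted gene), 18.5% of Tap2, 14.7% of Psmb8 and 11.5% of Erap1, which overlaps Cast. In spiny mouse the share was 10.2% for Erap1, 0.923% for Psme1 and none for the other members. The overlap of the mouse Psmb9 and Tap1 models is 5.79% and 3.87% of their exonic bases.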

How the data were processed

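RNA of 16 skin samples was analysed from the deposited raw counts of fragments per gene, 1 table per species. Per the submitters' processing notes, Trim Galore, HISAT2 and featureCounts were used. Per the file headers, featureCounts 2.0.3 counted read pairs without a strand setting and left out fragments with several matches, on GRCm39 with Ensembl 108 for mouse and on AcoCah2 for spiny mouse. Symbols were assigned to 56236 of 56980 mouse identifiers.

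In each species, genes kept by filterByExpr were tested as treated over untreated by edgeR 4.0.16 (R 4.3.3; quasi-likelihood F test, TMM scaling), with Benjamini-Hochberg adjustment and calls under 0.05. The species difference was the interaction over shared symbols. The SE is the size of the log2 fold change divided by the root of F. TPM used the deposited gene lengths. The fits were tested on simulated data. Subunit ratios were added after the data were seen, with exact permutation tests.

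The members, and the lists of pathway and marker genes, were chosen with earlier results of these data known. Genes named are the members, genes of these lists and the 5 nearest to the members' median profile and to Nlrc5. The labels do not say that samples are separate animals, so p-values measure the spread between samples, which may be technical. Replicates differed by more than sampling noise (chi-square per degree of freedom of 11.35 to 165.8 over 24 pairs). Untreated mouse replicate 2 gave 132.9 to 165.8 against the rest of its group. Untreated spiny mouse replicates 1 and 2 gave 85.11 to 154.7 against replicates 3 and 4. Within these pairs the values were 34.62 (1 and 2) and 22.59 (3 and 4). Untreated columns carry a code other than the labels' and were matched by species letter and number. For untreated mouse replicate 2 the match is less sure, since its column name has an unexplained extra suffix. Same-numbered samples did not deviate together, which cannot show whether they share an animal or batch. The labels do not say so either, and the main tests used no pairing. The settings tried beside these were DESeq2 1.42.0 as test or for its size factors, upper-quartile factors, library size alone, no low-count filter, a replicate block and leaving out each sample.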

Additional observations from a re-analysis of the deposited data

Results flagged for a closer look

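The treatment effect differed between the species, by the interaction test of edgeR, for 8 members. The difference in log2 fold change, spiny mouse minus mouse, was 2.58 for Psmb8, 2.57 for Psmb9, 1.48 for Nlrc5, 1.27 for Psmb10, 1.23 for B2m, 1.17 for Tap1, 0.94 for Tap2 and 0.88 for Erap1. The 8 included all 4 genes of the MHC cluster.

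Of 40 groups of 4 values, 5 held a sample far from the other 3 by Dixon's criterion, which chance meets in about 1 group in 20. In 4 of the 5 it was untreated mouse replicate 2, at 14.91 CPM for Psmb8 (the next sample was at 33.3), 15.48 for Psmb9 (31.88), 100.4 for Tapbp (179.6) and 41.97 for Erap1 (59.28). The fifth was B2m in untreated spiny mouse replicate 3, at 569.9 CPM with the next at 445.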

How the results depend on the processing

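Over 140 mouse and 140 spiny mouse member values under other settings and 220 values of the species difference, none lost its call and no called value changed sign, while 10, 4 and 4 of them gained a call. In mouse, 7 members fell when scaled by upper quartiles and 7 by library size alone, against 4 with TMM factors: Tap2, Tapbp and Erap1 joined (-0.49, -0.51 and -0.41 with upper-quartile factors). Of all 19740 mouse genes tested, 43.1% fell with upper quartiles and 44.7% with library size alone, against 35.3% with TMM factors. Leaving out 1 sample at a time gave 4 to 8 falling members in mouse, with 8 only without untreated replicate 2, where B2m, Tapbp (-0.40), Psmb10 and Erap1 (-0.23) joined. All 10 members then had a called positive species difference, with Tapbp at 0.59 and Psme1 at 0.52, as did 22.5% of the 13701 genes tested (39.92% of calls). The other counts were 8 to 9 members higher in spiny mouse and 8 to 10 with a positive difference. Psme1 in mouse, never called, was at -0.17 with upper-quartile factors and -0.11 without untreated replicate 2. Tapbp's species difference passed under either of those scalings (0.66 and 0.72). Nlrc5 rose in spiny mouse with the DESeq2 test (0.54, adjusted p 0.0394), with the replicate block (0.50, adjusted p 0.0379), and without untreated replicate 3 (0.69) or treated replicate 1 (0.74). The causes were not tested.

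Same-numbered samples did not deviate together (mean r of 0.00737 in mouse and -0.336 in spiny mouse), so the replicate block rests on numbers only. It gave 11246, 7418 and 5723 genes called in mouse, spiny mouse and the species difference, with 4 members lower, 9 higher and 8 positive. Of all genes tested with the block, 32.2% were lower in mouse, 26.1% higher in spiny mouse and 19% positive in the species difference. The share of mouse calls that were higher was 42.37% with TMM factors, 30.5% when scaled by upper quartiles and 28.6% by library size alone, which moved the median of all genes by -0.205 and -0.239. For the species difference it was 46.44%, 61.24% and 66.17%, and 36.28% with no filter, with the median moved by 0.164, 0.221 and -0.133.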

Other observations

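Over all 16 samples, the genes nearest to the median profile of the 10 members, of 9743 candidates outside them, were Irf9, Selplg, Otulinl, Shisa5 and Ptpn6. Likeness was the root mean square distance of log2 CPM, centred on the untreated mean of each species, and ran from 0.111 for Irf9 to 0.172 for Ptpn6. Some members lay far from this median profile. Psmb8 was at 0.558, Psmb9 at 0.572 and Nlrc5 at 0.440, with 4405, 4724 and 1618 candidates closer. Irf9, a DNA-binding factor of the interferon response, rose from 28.4 to 34.1 CPM in untreated spiny mouse skin to 39.1 to 57.9 CPM in treated skin, a log2 fold change of 0.65. Its mouse value was -0.38 and did not pass (edgeR adjusted p 0.0944). In both species Irf9 lies within a few genes of Psme1, with Emc9, Psme2 and Rnf31 between them.

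For Nlrc5 alone the nearest were Parp10, Atp2a3, Ciita, Il16 and Arhgap25, at distances of 0.197 to 0.271. Parp10 was at -1.02 in mouse and 0.57 in spiny mouse, and Il16, a leukocyte cytokine, at -1.12 and 0.43. Of the members Tap1 was closest to Nlrc5, at 0.299, with 28 other genes closer, and Psmb8 was at 0.654 with 3092 closer.

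These are bulk libraries of whole skin with 4 samples per group, and no protein or cell count was measured. Levels between species rest on different gene models.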
